A study of Homo sapiens with 6 samples.

Results

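The genes described here encode the proteins that recognise replication origins, start the fork and copy DNA at it. There were 44 of them, chosen by name as the subunits of the origin recognition complex, the origin firing kinase with CDC45 and GINS, the replicative DNA polymerases, the sliding clamp and its loader, replication protein A (RPA), lagging strand enzymes and fork protection factors. The rule names genes by role and sets no threshold on a measured value, although earlier results of these data were known when the list was drawn up. Each of the 44 had a row among the 58336 genes of the count table, found by its Ensembl identifier, and all 44 passed the filter on low counts that left 15844 genes for testing.

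RNA was sequenced from A2780, an established ovarian cancer cell line. Cells received DMSO, the vehicle, in 3 libraries (DMSO A, B and C), or TH-588 at 6 µM for 48 h in 3 libraries (TH-588 A, B and C). TH-588 is an inhibitor of MTH1, the enzyme that removes oxidised nucleotides from the nucleotide pool. The study's methods call each set of 3 biological triplicates, and every value comes from this single line, grown in one medium. The sample titles give 48 h for the TH-588 libraries and no time for the DMSO libraries.

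In each cell cycle the origin recognition complex marks the sites where replication can start, and a kinase then helps CDC45 and GINS join the MCM helicase to open the DNA. DNA polymerase alpha with primase lays down primers, polymerase epsilon copies the leading strand and polymerase delta the lagging strand, both held on DNA by the PCNA clamp. Most of these genes are transcribed more in cells that are about to enter or are in S phase, many of them under E2F transcription factors, so their RNA in a culture depends on how many of its cells are cycling.

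The 6 libraries held between 28537837 and 99074175 counts. The shallowest was TH-588 A, where 21.9% of counts came from SNORD3A, a small nucleolar RNA that made up 7.68% to 12.95% of the remaining 5. CDKN1A, which encodes the cell cycle inhibitor p21, served as a check on treatment: it lay at 4.84 to 5.72 CPM in the DMSO libraries and at 112 to 158 CPM in the TH-588 libraries. CPM is the standard unit of counts relative to library size, here after TMM scaling. Of 10 epithelial and Mullerian markers, 7 were too low to be tested, and the list summed to 6.43 to 7.56 CPM with DMSO and 15.2 to 16.1 CPM with TH-588. PAX8, a marker of Mullerian epithelium, had 0 counts in 5 of the 6 libraries. The 3 markers that could be tested were EPCAM, KRT18 and MUC1, all higher with TH-588. Their means were 0.644, 3.56 and 2.82 CPM with DMSO and 4.74, 6.54 and 4.09 CPM with TH-588. At such low levels these markers showed little of the labelled ovarian origin. The leukocyte markers summed to 0.767 to 1.36 CPM with DMSO and 1.01 to 1.32 CPM with TH-588, and 2 of the 8 were at 0 in all libraries. The endothelial markers summed to 0.316 to 0.909 and 0.598 to 1.05 CPM, and the fibroblast markers, most of whose sum was the collagen gene COL3A1, to 1642 to 1965 and 1926 to 2664 CPM. The part of these differences in the results below was not tested.

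Fork genes fell almost without exception after TH-588. At a Benjamini-Hochberg adjusted p below 0.05 in edgeR's quasi-likelihood test, 42 of the 44 were lower, 1 was higher (POLD4) and 1 did not pass (RPA3). Over all 15844 genes tested, 25.3% were lower and 24.2% were higher, 49.6% in all. Genes called higher made up 48.9% of all calls, or 60.4% where normalization used library size alone. The median log2 fold change (TH-588 minus DMSO) was -1.11 for the 44 genes and 0.02 for all genes tested. A fall of more than 2-fold was called for 26 of the 44, against 4.76% of all genes tested.

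The groups did not overlap for 43 of the 44 genes. Every TH-588 library lay below every DMSO library for 42 of them, which was the case for 29.0% of all genes tested, and above for POLD4 alone, against 28.7% of all genes. Summed over the 44 genes, the level was 3287, 3179 and 3304 CPM in DMSO A, B and C and 1523, 1674 and 1583 CPM in TH-588 A, B and C, so that the treated libraries held 48.9% of the DMSO level. As a share of raw counts the 44 genes took 0.304% to 0.325% of each DMSO library and 0.143% to 0.184% of each TH-588 library. In such bulk samples, fewer cells in S phase and less of these RNAs per cell cannot be told apart.

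TH-588 A was the lowest TH-588 library for 24 of the 44 genes (54.5%), while it was the lowest for 39.2% of all genes tested. Without it, 43 of the 44 were lower, RPA3 included, and the median log2 fold change was -1.06.

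**Figure D1:**
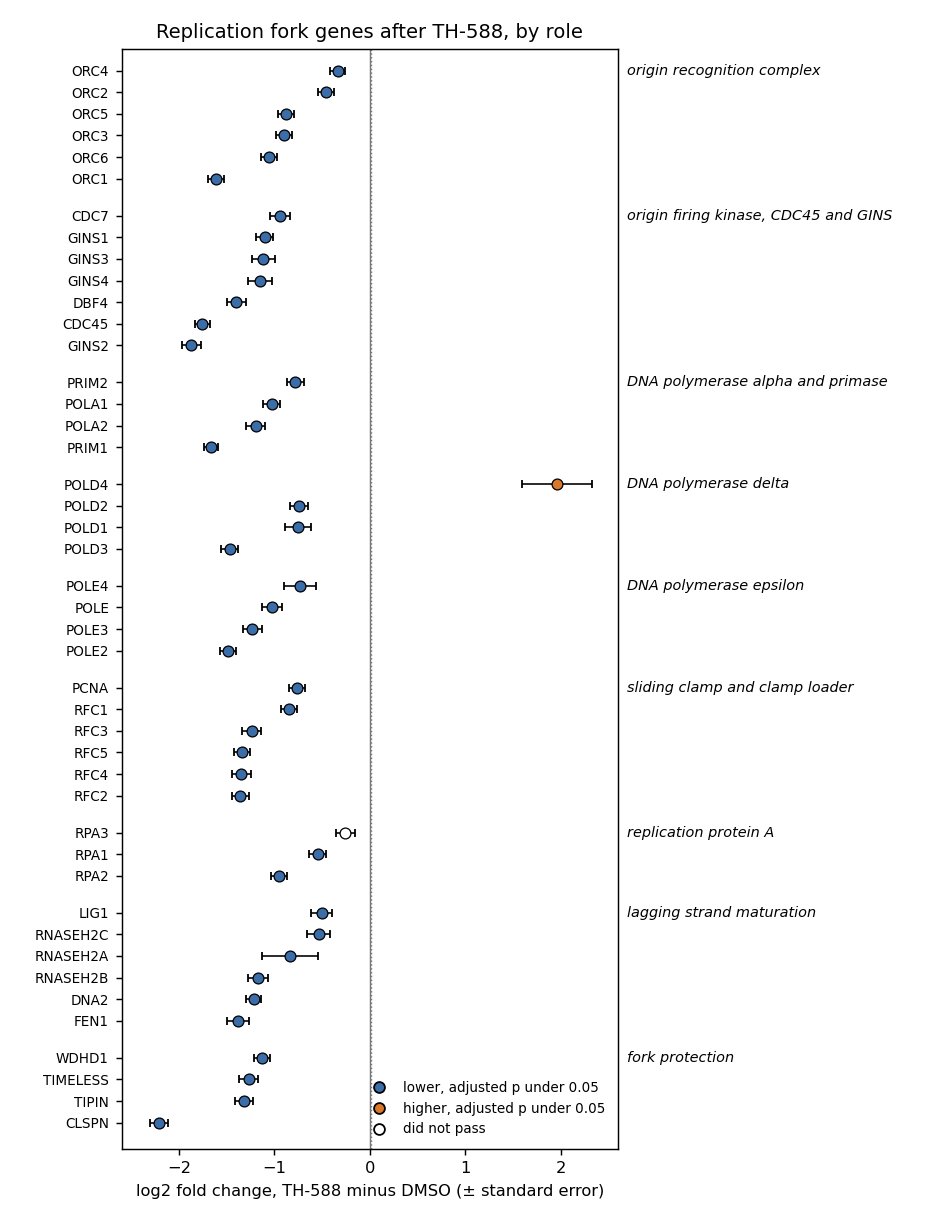
Log2 fold change (TH-588 minus DMSO) of the 44 fork genes with its standard error, grouped by role and sorted within each role, with blue for lower, orange for higher and white for the gene that did not pass. Points run from -2.21 (CLSPN) to 1.96 (POLD4), and all but POLD4 lie left of 0, with the dotted line at the median of all genes tested, 0.02.

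The promoters are shown because 42 of the genes moved together. RefSeq promoter windows on GRCh38.p14, from 250 bases before to 50 after a transcription start, were held for 39 of the 44 genes (51 windows), and GINS4, DNA2, POLD3, RPA2 and RPA3 were not matched. The windows were searched on both strands for 4 E2F-type words (TTTCCCGC, TTTCGCGC, TTTGCCGC and TTTGGCGC), which resemble the sites that E2F factors are known to bind. At least 1 of them stood in 15 of the 51 windows (29.4%), against 3.31% of all 35116 windows and 4.70% of the windows of tested genes. In the 250 bases before the start alone the figures were 21.6%, against 2.79% of all windows and 3.96% of the windows of tested genes. The words, and the promoters printed here, were chosen after the genes' values were known, and a match is a description of the letters, not of binding.

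Words of 3 further kinds were searched the same way, which made 4 kinds in 2 windows in all. CCAAT, the box bound by NF-Y, stood in 51.0% of the 51 windows and 34.6% of all windows, with 34.6% for the windows of tested genes. GGGCGG, a GC box, stood in 72.5% and 45.0%, with 64.1% for the windows of tested genes. The CHR words TTTGAA and TTCGAA, known from promoters of mitotic genes, stood in 3.92% (2 windows) and 16.4%, with 12.2% for the windows of tested genes. The median GC content was 64.3% for the 51 windows and for those of tested genes, and 58.7% for all windows.

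The promoters below show the word, in capitals, in 6 genes that fell, and the promoter of POLD4, the gene that rose, which held none of the 4 words. They are written 5′ to 3′ along the gene's strand and end at the RefSeq start, except CLSPN, which runs 8 bases past it, and POLA2, which stops 25 bases short. The CLSPN word starts 5 bases before the transcription start. CDC7 has the word in both directions, and in TIPIN the forward and reverse words overlap.
CLSPN, chr1:35769971-35769998, minus strand: ctccactctggctggGCGGGAAAgcaag
GINS2, chr16:85688955-85689104, minus strand: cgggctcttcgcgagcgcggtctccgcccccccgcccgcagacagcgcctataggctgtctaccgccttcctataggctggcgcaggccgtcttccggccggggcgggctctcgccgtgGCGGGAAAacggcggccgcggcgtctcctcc
CDC7, chr1:91500962-91501111, plus strand: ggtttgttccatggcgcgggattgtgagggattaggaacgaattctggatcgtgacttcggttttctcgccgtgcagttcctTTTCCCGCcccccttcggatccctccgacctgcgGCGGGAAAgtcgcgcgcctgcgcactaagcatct
TIPIN, chr15:66356686-66356835, minus strand: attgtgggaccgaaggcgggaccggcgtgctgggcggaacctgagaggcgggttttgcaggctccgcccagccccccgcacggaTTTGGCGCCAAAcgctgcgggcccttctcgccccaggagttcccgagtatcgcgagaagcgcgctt
PCNA, chr20:5126623-5126772, minus strand: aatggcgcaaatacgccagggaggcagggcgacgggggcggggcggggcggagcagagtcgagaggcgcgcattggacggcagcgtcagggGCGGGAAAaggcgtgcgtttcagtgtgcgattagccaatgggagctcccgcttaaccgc
POLA2, chr11:65261812-65261936, plus strand: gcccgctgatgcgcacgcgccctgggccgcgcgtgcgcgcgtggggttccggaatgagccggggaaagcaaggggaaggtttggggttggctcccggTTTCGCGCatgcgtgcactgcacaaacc
POLD4, chr11:67353597-67353746, minus strand: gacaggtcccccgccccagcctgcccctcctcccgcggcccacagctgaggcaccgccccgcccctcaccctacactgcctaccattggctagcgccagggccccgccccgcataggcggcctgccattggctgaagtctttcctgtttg

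The 15 genes with an E2F-type word were ORC3, CDC7, GINS1, GINS2, GINS3, POLA1, POLA2, POLE, POLE2, POLE4, PCNA, RFC3, LIG1, TIPIN and CLSPN. Their log2 fold changes ran from -2.21 to -0.50 with a median of -1.10, and those of the 24 genes without a word in their windows ran from -1.76 to 1.96 with a median of -1.09. The largest fall, of CLSPN, was among the genes with the word, and the rise of POLD4 was among those without it. GINS2 and LIG1 both carry it and lay at -1.87 and -0.50, and PRIM1 and CDC45, without it, at -1.66 and -1.76.

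The 6 subunits of the origin recognition complex, which loads onto origins before the helicase does, were all lower (median log2 fold change -0.89). ORC1, the subunit whose protein is known to be degraded and remade in each cell cycle, fell most. ORC1 (ENSG00000085840, chr1:52372829-52404459) lay at 116, 112 and 115 CPM in DMSO A, B and C and at 35.6, 41.1 and 35.7 CPM in TH-588 A, B and C. It was 3.05-fold lower (log2 fold change -1.61, SE 0.08, adjusted p = 5.58e-08, edgeR quasi-likelihood test), and the groups lay far apart. ORC4, a subunit of the core complex, changed least, with 52.8, 56.9 and 57.3 CPM against 43.2, 44.05 and 45.0 CPM. Its log2 fold change was -0.34 (SE 0.08, adjusted p = 0.00309, edgeR quasi-likelihood test), without overlap between the groups, and the call was lost with library size as the sole normalization (adjusted p = 0.0890 from the same edgeR test). The core subunits ORC2, ORC3 and ORC5 lay at log2 fold changes of -0.46, -0.90 and -0.88, and ORC6 at -1.06.

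The 7 genes that turn a licensed origin into a pair of forks were all lower as well, 6 of them by more than 2-fold, with a median of -1.15. GINS2, a subunit of the GINS complex that travels with the helicase, fell most. GINS2 (ENSG00000131153, chr16:85676198-85690073) lay at 32.5, 35.1 and 32.8 CPM with DMSO and 8.33, 9.12 and 9.92 CPM with TH-588. That was a 3.65-fold fall (log2 fold change -1.87, SE 0.10, adjusted p = 6.42e-08, edgeR quasi-likelihood test), and the groups stood far apart. CDC7, the catalytic subunit of the origin firing kinase, changed least, from 43.8, 47.1 and 45.3 CPM to 21.0, 22.5 and 27.3 CPM. This was a log2 fold change of -0.94 (SE 0.10, adjusted p = 1.22e-05, edgeR quasi-likelihood test), and its highest TH-588 library, C, was still well below the lowest DMSO library.

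DBF4, the regulatory subunit that activates CDC7, lay at a log2 fold change of -1.40, and CDC45, which joins GINS and MCM in the working helicase, at -1.76. The other GINS subunits stood close together, at -1.10 for GINS1, -1.12 for GINS3 and -1.15 for GINS4. Exons of other genes covered 33.4% of the bases of the GINS4 canonical transcript and 14.4% of that of GINS3, and how reads in shared exons were counted is not stated. The overlapping genes found for GINS4 had at most 4 counts in any library.

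All 4 genes of DNA polymerase alpha and primase were lower, with a median of -1.11. PRIM1, the catalytic primase subunit, fell most of the 4. PRIM1 (ENSG00000198056, chr12:56731596-56752373) lay at 78.2, 79.2 and 79.1 CPM with DMSO and 24.7, 25.2 and 24.8 CPM with TH-588, a log2 fold change of -1.66 (SE 0.07, adjusted p = 2.02e-08, edgeR quasi-likelihood test). PRIM2, its regulatory partner, lay at 35.2, 40.5 and 37.6 CPM against 20.5, 21.8 and 23.5 CPM, a log2 fold change of -0.78 (SE 0.09, adjusted p = 2.18e-05, same edgeR test). Neither overlapped between groups.

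POLA1, the catalytic subunit of polymerase alpha, lay at 123, 119.6 and 126 CPM with DMSO and 52.3, 62.6 and 65.4 CPM with TH-588. Its log2 fold change was -1.03 (SE 0.09, adjusted p = 2.45e-06, edgeR quasi-likelihood test), with TH-588 A the lowest library. POLA2, the accessory subunit, lay at -1.20 on the same scale.

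DNA polymerase delta was the only role with calls in both directions: POLD1, POLD2 and POLD3 were lower and POLD4 was higher. POLD3, an accessory subunit that binds PCNA, fell most. POLD3 (ENSG00000077514, chr11:74493851-74669117) lay at 35.7, 34.1 and 35.4 CPM with DMSO and 12.6, 12.3 and 13.1 CPM with TH-588, a log2 fold change of -1.47 (SE 0.09, adjusted p = 1.30e-07, edgeR quasi-likelihood test). POLD1, the catalytic subunit, lay at 57.9, 52.5 and 57.0 CPM and at 25.1, 39.3 and 34.3 CPM. Its log2 fold change was -0.75 (SE 0.13, adjusted p = 0.000482, edgeR quasi-likelihood test), and the TH-588 libraries spread widely, A being the lowest. POLD2, the subunit that bridges the complex, lay at -0.74.

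POLD4, the smallest subunit, known to be degraded after DNA damage at the protein level, was the only fork gene that rose. POLD4 (ENSG00000175482, chr11:67350777-67356972) had 31, 13 and 45 counts in DMSO A, B and C and 31, 128 and 136 counts in TH-588 A, B and C. On the CPM scale these were 0.377, 0.158 and 0.480 with DMSO and 1.16, 1.18 and 1.63 with TH-588, without overlap. The log2 fold change was 1.96 (SE 0.37, adjusted p = 0.000793, edgeR quasi-likelihood test), and it lay between 1.62 and 2.33 and kept its call when each library was left out in turn. Its level was the lowest of the 44 genes per length, 0.111 CPM per kb of exon with DMSO. Exons of another gene covered 38.4% of its canonical transcript. That gene, ENSG00000256514 on the same strand, had 0 counts in all 6 libraries, and the split of reads between them is not stated.

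The 4 subunits of DNA polymerase epsilon were lower, with a median of -1.13. POLE2, the accessory subunit needed to assemble the helicase at origins, fell most. POLE2 (ENSG00000100479, chr14:49643555-49688422) lay at 36.4, 39.8 and 37.5 CPM with DMSO and 13.5, 13.5 and 13.6 CPM with TH-588, a log2 fold change of -1.48 (SE 0.09, adjusted p = 9.95e-08, edgeR quasi-likelihood test). POLE, the catalytic subunit, lay at 324, 286 and 289.6 CPM and at 136, 171 and 135 CPM, a log2 fold change of -1.03 (SE 0.10, adjusted p = 6.37e-06, same edgeR test). Both were lower in every treated library.

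POLE4, a histone-fold subunit, changed least of the complex, from 8.13, 10.5 and 8.65 CPM to 4.07, 5.65 and 6.43 CPM. That gave a log2 fold change of -0.73 (SE 0.16, adjusted p = 0.00285, edgeR quasi-likelihood test), and its groups stood close, with TH-588 C at 6.43 and DMSO A at 8.13 CPM. POLE3, its histone-fold partner, lay at -1.23.

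Among the clamp and its loader all 6 genes were lower, with a median of -1.29. RFC2, a small subunit of the clamp loader, fell most. RFC2 (ENSG00000049541, chr7:74231499-74254458) lay at 67.2, 59.1 and 68.3 CPM with DMSO and 26.5, 26.2 and 23.4 CPM with TH-588, a log2 fold change of -1.36 (SE 0.09, adjusted p = 3.11e-07, edgeR quasi-likelihood test). The other small subunits stood beside it, at -1.24 for RFC3, -1.35 for RFC4 and -1.34 for RFC5. The large subunit RFC1 lay apart from them at -0.84.

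PCNA, the ring that tethers polymerases to DNA and a known p53 target, changed least of this role. PCNA (ENSG00000132646, chr20:5114953-5126626) lay at 185, 185 and 206 CPM with DMSO and 121, 113 and 106 CPM with TH-588. Its log2 fold change was -0.76 (SE 0.08, adjusted p = 1.29e-05, edgeR quasi-likelihood test), and the groups did not overlap. No processed copy of any of the 44 genes exceeded 21 counts in a library. PCNA was the most abundant of the 44 genes per length, at 130.5 CPM per kb of exon with DMSO and 76.9 with TH-588.

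**Figure D2:**
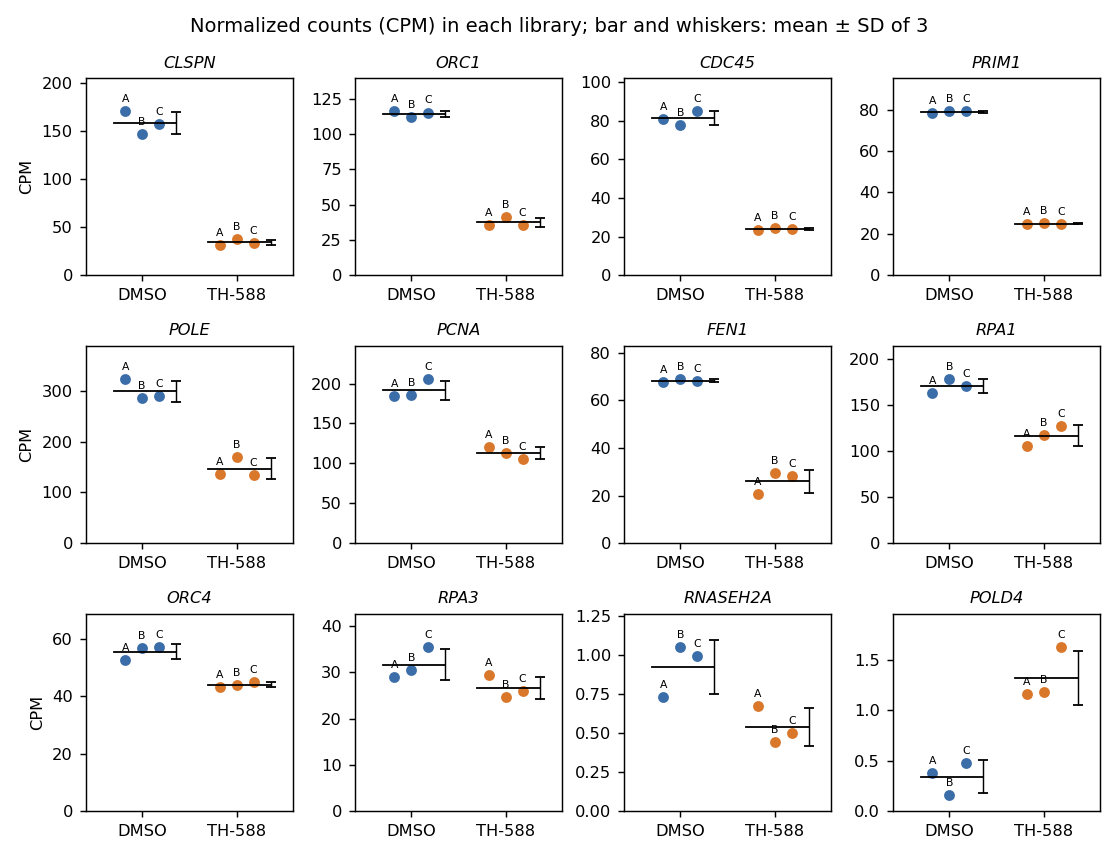
Normalized counts in CPM of 12 fork genes in each library, with letters for the replicate, a bar for the mean and whiskers for its SD (n = 3), on linear axes that start at 0. TH-588 points lie below all DMSO points for every gene shown except RPA3, whose groups overlap, and POLD4, which is higher with TH-588.

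RPA, which coats single-stranded DNA, changed least of the 9 roles, with a median of -0.55, and none of its 3 subunits fell by more than 2-fold. RPA2, the middle subunit, phosphorylated when forks stall, fell most. RPA2 (ENSG00000117748, chr1:27891524-27914746) lay at 70.7, 71.3 and 74.1 CPM with DMSO and 39.9, 38.5 and 33.9 CPM with TH-588, a log2 fold change of -0.95 (SE 0.08, adjusted p = 2.44e-06, edgeR quasi-likelihood test). RPA1, the large subunit that makes most of the contact with DNA, lay at -0.55.

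RPA3, the small subunit, was the only gene of the 44 that did not pass. RPA3 (ENSG00000106399, chr7:7636518-7718607) lay at 29.0, 30.5 and 35.5 CPM with DMSO and 29.4, 24.6 and 25.9 CPM with TH-588, a log2 fold change of -0.25 (SE 0.10, adjusted p = 0.0582, edgeR quasi-likelihood test). TH-588 A lay above DMSO A, so the groups overlapped. Without TH-588 A the gene passed, with a log2 fold change of -0.31 (adjusted p = 0.0226, edgeR quasi-likelihood test).

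All 6 lagging strand genes were lower, 3 of them by more than 2-fold, with a median of -1.002. FEN1, the nuclease that trims the flaps of Okazaki fragments, fell most. FEN1 (ENSG00000168496, chr11:61792637-61797244) lay at 67.6, 68.9 and 68.0 CPM with DMSO and 20.5, 29.3 and 28.2 CPM with TH-588, a log2 fold change of -1.38 (SE 0.12, adjusted p = 1.61e-06, edgeR quasi-likelihood test). LIG1, the ligase that seals the fragments, changed least, from 179, 153 and 163 CPM to 107, 138 and 104 CPM, a log2 fold change of -0.50 (SE 0.11, adjusted p = 0.00233, same edgeR test). LIG1 in TH-588 B came nearest to the DMSO libraries without reaching them. DNA2, a nuclease and helicase that cuts long flaps, lay at -1.22.

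The RNase H2 subunits, which together remove ribonucleotides from DNA, lay at -0.83 (RNASEH2A), -1.17 (RNASEH2B) and -0.54 (RNASEH2C). RNASEH2A (ENSG00000104889, chr19:12806556-12815201), the catalytic subunit, had 60, 87 and 93 counts with DMSO and 18, 48 and 42 with TH-588. On the CPM scale these were 0.730, 1.05 and 0.993 against 0.673, 0.441 and 0.503, so the groups did not overlap but TH-588 A lay just under DMSO A. The log2 fold change had an SE of 0.30 (adjusted p = 0.0343, edgeR quasi-likelihood test). This call is uncertain: it was lost without DMSO B, DMSO C, TH-588 B or TH-588 C, where the adjusted p of the same edgeR test was 0.0967, 0.0961, 0.139 and 0.111. Exons outside the gene covered 94.1% of its canonical transcript. THSD8, on the same strand, was the only gene found to share its exons and had at most 6 counts in a library. For RNASEH2C the share was 40.5%, and its overlapping neighbour KAT5 on the opposite strand had between 410 and 2057 counts, with no strand recorded by the library kit.

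The 4 fork protection genes were lower by more than 2-fold each, with a median of -1.29. CLSPN, which encodes claspin, the adaptor through which ATR activates CHK1, showed the largest fall of the 44 genes. CLSPN (ENSG00000092853, chr1:35720218-35769967) lay at 171, 148 and 158 CPM with DMSO and 31.9, 37.4 and 33.6 CPM with TH-588. It was 4.62-fold lower (log2 fold change -2.21, SE 0.09, adjusted p = 1.50e-08, edgeR quasi-likelihood test). WDHD1, which links polymerase alpha to the helicase, changed least of this role, from 100.4, 108 and 111 CPM to 52.6, 46.7 and 46.8 CPM. This gave a log2 fold change of -1.13 (SE 0.08, adjusted p = 5.56e-07, edgeR quasi-likelihood test), again without overlap. TIMELESS and TIPIN, which form 1 complex that keeps polymerases and helicase together, lay at -1.27 and -1.32.

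Levels can be compared between genes only per length, as CPM per kb of exon. On that scale 42 of the 44 genes had a DMSO level of at least 1, the exceptions being POLD4 and RNASEH2A. Exons of other genes covered 38.4% and 94.1% of the canonical transcripts of these 2. How reads in shared exons were counted is not stated, so both levels are uncertain. After PCNA the highest DMSO levels were those of ORC1 (36.3), RPA2 (35.7), PRIM1 (32.4) and RPA1 (31.2), and all 5 were lower with TH-588. With TH-588 ORC1 stood at 11.9 and PRIM1 at 10.2, while RPA1 at 21.3 and RPA2 at 18.5 came next after PCNA. Both orders rest on merged exon length, which exceeds the canonical transcript by unlike amounts. ORC1 has 3157 merged exon bases and 3121 canonical bases, while POLD2 has 3695 and 1609 and RFC4 has 2997 and 1365. On canonical lengths the ranks below PCNA would differ. The low level of RNASEH2B, 2.50 per kb, is set against a merged exon length of 26291 bases, with 1513 bases in its canonical transcript. Across the 44 genes, Spearman's rho between the DMSO level per kb and the log2 fold change was -0.33, a description over genes that share the same libraries and whose DMSO values enter both measures.

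**Figure D3:**
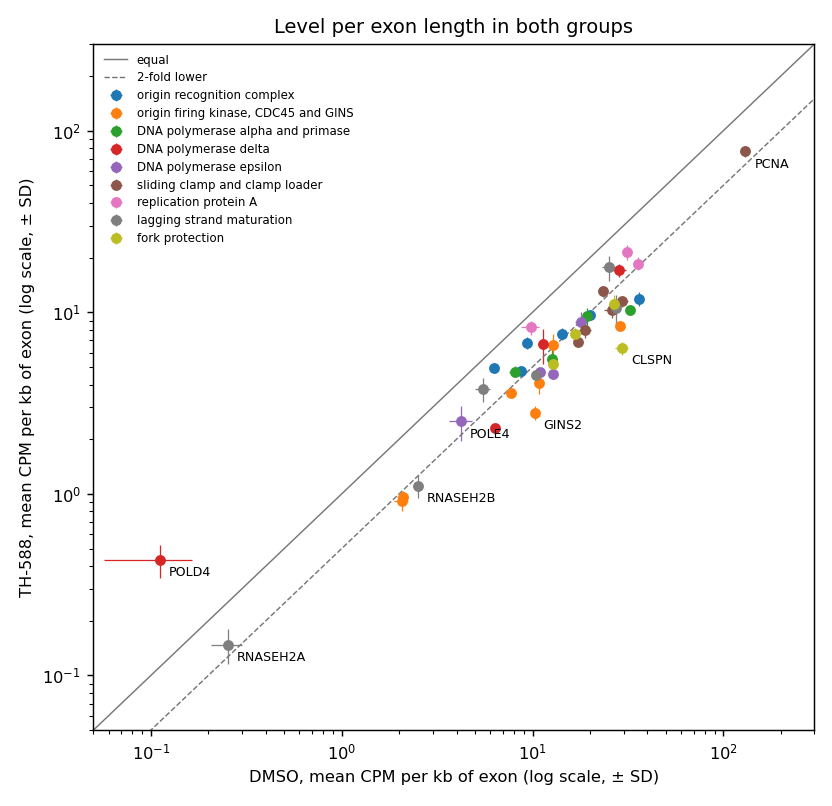
Mean level per exon length (CPM per kb) of the 44 genes with DMSO (horizontal) and TH-588 (vertical), both on log axes with SD over 3 libraries, coloured by role, with lines for equal levels and for a 2-fold fall. PCNA stands at the top right at 130.5 and 76.9, 26 genes lie below the line for a 2-fold fall, and only POLD4 lies above the line of equal levels.

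Within a complex, the log2 fold changes of the subunits differed in size. Ratios of counts per kb between subunits, from which the library scale cancels, were compared for 12 pairs with an exact two-sided permutation test over the 6 libraries, for which the smallest possible p is 0.1. In 8 of the 12 pairs the groups did not overlap, and each of these 8 gave that smallest p (0.15 after Benjamini-Hochberg adjustment over the 12 pairs), so no pair could pass a threshold of 0.05 in this design. Among single genes, 9149 of the 15844 tested had groups without overlap, and no share was computed for other pairs of genes. POLE3 to POLE stood apart only narrowly, at 0.580 in TH-588 A and 0.586 in DMSO A.

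The ratio of ORC2 to ORC1 was 0.253, 0.256 and 0.262 in DMSO A, B and C and 0.648, 0.482 and 0.598 in TH-588 A, B and C, 2.23-fold larger. ORC1 was the more abundant of both per length in every library, by less after TH-588. PRIM2 to PRIM1 went from 0.235, 0.267 and 0.248 to 0.433, 0.452 and 0.495, 1.84-fold larger. GINS3 to GINS2 went from 0.202, 0.210 and 0.199 to 0.338, 0.367 and 0.322, 1.68-fold larger.

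RFC1 to RFC4 went from 0.896, 0.949 and 0.848 to 1.26, 1.22 and 1.33. Its change does not depend on the lengths used, but its place above or below 1 does. The merged exon lengths are 6719 bases for RFC1 and 2997 for RFC4, and the canonical transcripts have 4870 and 1365. Which of the 2 was more abundant is therefore not read from this ratio. The log2 difference of RFC1 to RFC4 was 0.50, that of ORC6 to ORC1 0.56 and that of POLD4 to POLD1 2.88. DBF4 to CDC7 and POLE3 to POLE were smaller after TH-588, by log2 differences of -0.46 and -0.20. The groups overlapped for POLE4 to POLE, RPA3 to RPA1, RNASEH2C to RNASEH2A and TIPIN to TIMELESS. The TIPIN to TIMELESS ratio lay between 0.459 and 0.496 with DMSO and between 0.415 and 0.533 with TH-588, the smallest difference of the 12 (log2 -0.04, SE 0.11, exact permutation p = 0.8).

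**Figure D4:**
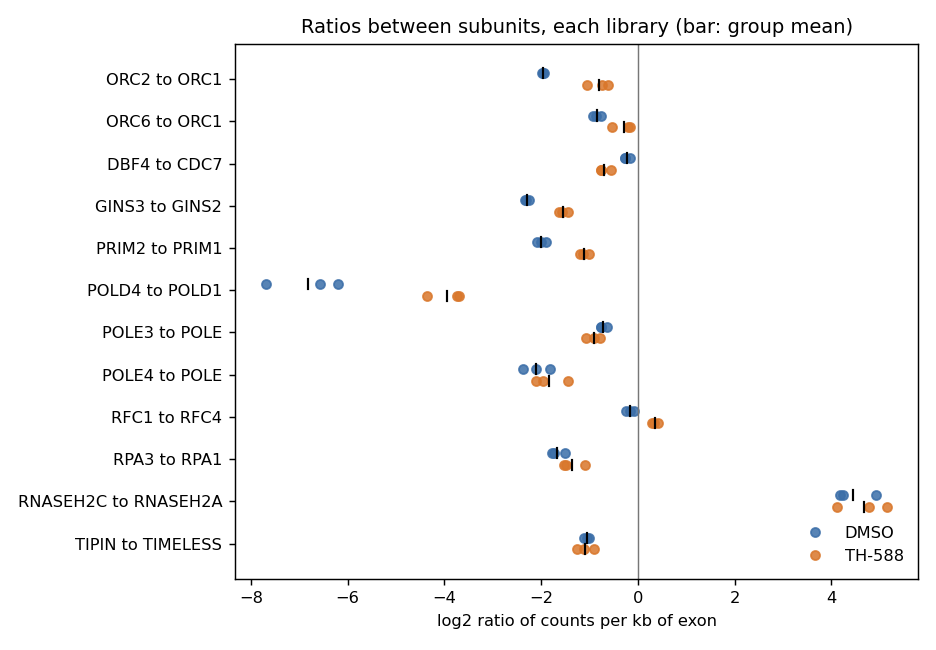
Log2 ratio of counts per kb of exon between 2 subunits of one complex, in each DMSO (blue) and TH-588 (orange) library, with a bar for the group mean. The groups stand apart for 8 pairs, narrowly for POLE3 to POLE and with the widest step for POLD4 to POLD1. They overlap for POLE4 to POLE, RPA3 to RPA1, RNASEH2C to RNASEH2A and TIPIN to TIMELESS.

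Other replication genes were read from the same fit for comparison. All 10 genes of the MCM helicase and origin licensing were lower, each by more than 2-fold (median -1.20). The largest falls were those of CDC6, a helicase loader (log2 fold change -1.95), and MCM3, a helicase subunit (-1.71). Of 29 partners of the replisome, 23 were lower, 2 were higher and 4 did not pass, with a median of -1.01. MCM10, which helps activate the helicase, and SSRP1, a subunit of the histone chaperone FACT, fell most (-1.94 and -1.72).

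The 2 that rose were SMARCAL1 and ETAA1. SMARCAL1, which remodels stalled forks, rose from 38.9, 41.0 and 42.6 CPM to 51.1, 51.4 and 52.9 CPM (log2 fold change 0.34, adjusted p = 0.00268, edgeR quasi-likelihood test). ETAA1, an activator of ATR, rose from 11.4, 13.8 and 13.8 CPM to 17.3, 14.6 and 17.8 CPM (0.35, adjusted p = 0.0312, same edgeR test). The ETAA1 call was lost without DMSO A, TH-588 A or TH-588 C (adjusted p = 0.0998, 0.0554 and 0.0909 from the same edgeR test), and that of SMARCAL1 was kept.

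Of 12 genes for the copying of mitochondrial DNA, 9 were lower, 1 was higher and 2 did not pass. Their median was -0.42, against -1.11 for the 44 fork genes, and none fell by more than 2-fold. TFAM, which packages mitochondrial DNA, and PRIMPOL, a primase-polymerase of nucleus and mitochondria, fell most (-0.81 and -0.80). TOP1MT, also called lower, had groups that overlapped (-0.27, adjusted p = 0.0460, edgeR quasi-likelihood test). The TOP1MT call held in 1 of the 6 fits that each left out 1 library, and the MGME1 call in 4. LIG3, a ligase that works in mitochondria among other places, was the gene that rose (0.20, adjusted p = 0.0425, edgeR quasi-likelihood test). Its call held only without TH-588 A among the 6 fits that each left out 1 library. Exons of other genes covered 44.8% of its canonical transcript. CCT6B and RFFL, on the opposite strand, share its exons, and the library kit recorded no strand. The difference between the lists was not tested.

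**Figure D5:**
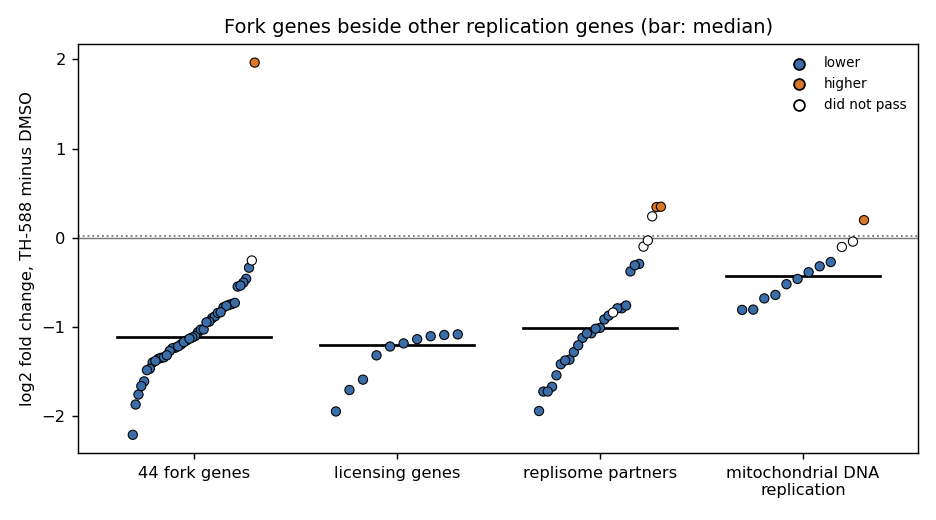
Log2 fold change (TH-588 minus DMSO) of each gene in the 44 fork genes, 10 licensing genes, 29 replisome partners and 12 mitochondrial DNA replication genes, with a bar at each median and a dotted line at the median of all genes tested. Medians lie at -1.11, -1.20, -1.01 and -0.42, and the mitochondrial genes stay above -1.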

How the data were processed

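PolyA RNA of 3 DMSO and 3 TH-588 samples of A2780 was made into TruSeq RNA v2 libraries, a kit that does not mark strand. The authors aligned reads to GRCh38 with TopHat, counted them per gene with featureCounts 1.4.6 and deposited raw counts. Gene models are given as UCSC's in the methods, but rows bear Ensembl identifiers, and the treatment of reads matching several genes is not given in the sources used here. Coordinates are those of the deposited table on GRCh38.

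The counts were compared with edgeR 4.0.16 in R 4.3.3 (TMM, filterByExpr, quasi-likelihood test, Benjamini-Hochberg over 15844 genes, adjusted p under 0.05), without a replicate term. SE is |log2 fold change| / sqrt(F). Methods were tested on simulated data. Levels per kb divide CPM by merged exon length. Alternatives were DESeq2 1.42.0 and its size factors, limma-voom 3.58.1, library size only, other filters, a stricter threshold, a replicate block, removal of a gene length trend or of the 10 most abundant genes, and each library left out in turn.

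The genes and lists were chosen with earlier results of these data known. Values per library are given, in each role, for the largest fall and the largest rise or, where none rose, the smallest change, for genes that rose or did not pass, and for PCNA, POLA1, POLD1 and POLE. RNASEH2A, and CDC45 and RPA1 in the plot of counts by library, fall outside this rule and were added after their values were seen. Of each other list the 2 largest falls and rises past the threshold are named. With 3 libraries against 3, the model carries the significance of single genes, and p-values measure the spread between these samples of 1 line. On the TMM-scaled library sizes, a floor of 3 counts lies at 0.0276 to 0.112 CPM, for counting error only.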

Additional observations from a re-analysis of the deposited data

How the results depend on the processing

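Across the 44 genes, no alternative changed the direction of any of them. The number called lower was 40 to 43 over all settings and 41 to 43 with each library left out in turn, and the median log2 fold change was then -1.12 to -1.06. With library size only, every change moved up, since the median of all genes rose to 0.13: the median of the 44 genes was -0.999, that of the replisome partners -0.90 and that of the mitochondrial list -0.32, and ORC4 and RNASEH2A lost their call. RPA3 passed with limma-voom (adjusted p = 0.0397) and with a gene length trend removed (adjusted p = 0.0498, edgeR). The median of all genes was 0.14 with no filter.

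The number of mitochondrial genes called higher, 1 (LIG3), was 0 with no filter, with the replicate block, with the block and the length trend removed, and at an adjusted p under 0.01, and was 0 to 1 with each library left out. Of the replisome partners 1 was called higher at an adjusted p under 0.01, and 1 to 3 with each library left out. Medians over those fits were -1.08 to -0.92 for the partners and -0.44 to -0.35 for the mitochondrial list. With library size only, 20 partners and 6 mitochondrial genes were called lower, against 23 and 9 in the main fit. Among the partners called lower, CHTF8 kept its call in 3 and HLTF in 5 of the 6 fits that left out 1 library.

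Among ratios, 2 changed sign without TH-588 B: RNASEH2C to RNASEH2A (log2 difference -0.0035, range to 0.52) and TIPIN to TIMELESS (0.047, range from -0.13). The cause was not tested.

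The replicate letters did not pair the libraries (correlations of deviations -0.17, -0.20 and -0.01 for A, B and C), so the block is an alternative only. With it, 7195 genes were called, against 7852, and 41 of the 44 genes were lower, RNASEH2A having lost its call (adjusted p = 0.0658, edgeR). Counts were lowest for POLD4 and RNASEH2A, with as few as 13 and 18 in a library. Exons of other genes covered 38.4% and 94.1% of their canonical transcripts. The part of depth and of shared exons in these low counts was not tested.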
